A study of Homo sapiens with 6 samples.

Results

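Transcripts of 6 metallothionein and zinc handling genes were examined in PC3, a human line derived from a prostate cancer metastasis, with and without depletion of VprBP. The members were chosen by symbol from a named set, the metallothioneins MT2A, MT1X and MT1F, the zinc-sensing transcription factor MTF1, and the zinc transporters SLC30A1 and SLC39A10, and the set was drawn up because MT2A was among the largest increases in this same comparison. All 6 were found among the 12227 genes listed in the deposited table. The product of DCAF1, VprBP recruits substrates to a cullin-based ubiquitin ligase, and a kinase activity toward histone H2A has also been reported for it. The VprBP shRNA group held 3 libraries of PC3 cells carrying short hairpin RNA against VprBP, labelled as knockdown, and the control group held 3 libraries of PC3 cells carrying control shRNA, labelled WT. Both groups were grown in the same serum-containing medium, and the labels name no addition of metal. Each group's samples carry the numbers sh1, sh2 and sh3, and whether these stand for hairpins, clones, cultures or repeat libraries is not stated. The p-values below therefore rest on the scatter among these 6 libraries alone, and that scatter may be technical.

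Metallothioneins are small cysteine-rich proteins that bind zinc and copper and buffer the free metal in the cell. Excess zinc binds the zinc fingers of MTF1, which then binds metal response elements (MREs) in the promoters of metallothionein genes and of SLC30A1, the exporter that moves zinc out across the plasma membrane, and raises their transcription. SLC39A10 is an importer that moves zinc into the cytosol, and its transcription is known from mouse and zebrafish to be repressed through MTF1 when zinc is high. MT2A is also known to respond to glucocorticoids and to cytokines. Normal prostate epithelium accumulates zinc to unusually high levels, and prostate cancer cells typically lose this property.

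The deposited values are scaled estimated reads. The worth of 1 read was itself estimated from the spacing of low values, as 0.0254 to 0.0439 units depending on the library. It was taken as the widest spacing that fitted well, and a narrower one would raise every read number given here and narrow the counting intervals. The sums over listed genes came to 23029470 to 39633859 estimated reads in VprBP shRNA libraries and 22981640 to 32293158 in control libraries. DCAF1, the targeted gene, had values of 38.5, 41.1 and 40.2 in VprBP shRNA libraries and 79.4, 78.5 and 78.7 in control libraries. This is a log2 fold change of -0.97 with an SE of 0.05 (limma adjusted p = 3.56e-11), with every VprBP shRNA library below every control library, and an exact two-sided permutation test gave p = 0.1, the smallest that 3 libraries against 3 allow. All 4 epithelial markers looked for were listed, as was the prostate lineage marker HOXB13, whereas KLK3 and FOLH1 were not listed. None of 3 leukocyte and none of 3 fibroblast markers was listed, and of 2 endothelial markers PECAM1 was listed, at 22.6 to 24.0 in VprBP shRNA libraries and 53.0 to 55.2 in control libraries. The part of this difference in the results below was not tested. In such bulk samples, more cells that carry a transcript and more transcript per cell cannot be told apart.

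The 3 listed metallothionein transcripts were all far more abundant in VprBP shRNA cells, MT2A most of all. MT2A had values of 358, 327 and 302 in VprBP shRNA libraries 1 to 3, against 19.1, 19.6 and 18.3 in control libraries 1 to 3. The lowest VprBP shRNA library thus lay far above the highest control library. The means were 329 ± 28.1 in VprBP shRNA cells and 19.0 ± 0.666 in control cells (SD, n = 3 each), a 17.3-fold difference, with a log2 fold change of 4.08 (SE 0.06) on the log2(value + 0.5) scale. That was the 4th largest increase of all 12227 listed genes. These are the values for which the set was chosen, and they are given as a description, without a test.

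MT1X, another metal-inducible metallothionein, had values of 20.6, 20.07 and 19.4 in VprBP shRNA libraries, against 1.97, 2.11 and 2.17 in control libraries. The means were 20.03 ± 0.606 in VprBP shRNA cells and 2.08 ± 0.105 in control cells (SD, n = 3 each), a 9.62-fold difference (log2 fold change 2.99, SE 0.11). MT1F had values of 7.53, 7.82 and 8.39 in VprBP shRNA libraries, against 1.81, 1.04 and 1.42 in control libraries. The means were 7.91 ± 0.438 in VprBP shRNA cells and 1.42 ± 0.389 in control cells (SD, n = 3 each), a 5.56-fold difference (log2 fold change 2.15, SE 0.17). For both genes the VprBP shRNA libraries lay close together and well above every control library.

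Every gene in the table has 150.0 estimated reads or more in at least 1 library. MT1X had 442 to 811 estimated reads in VprBP shRNA libraries and 49 to 64 in control libraries, and MT1F had 191 to 296 and 24 to 59. These 2 genes therefore entered the table only through the VprBP shRNA libraries and had to differ to be listed at all. MT2A, with 6877 to 14084 estimated reads in VprBP shRNA libraries and 438 to 621 in control libraries, passed in both groups, as did MTF1, SLC30A1 and SLC39A10. Of 18 metallothionein genes and pseudogenes looked for by symbol, the other 15, MT1E, MT1G and MT1M among them, were not listed and were not analysed here.

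**Figure D1:**
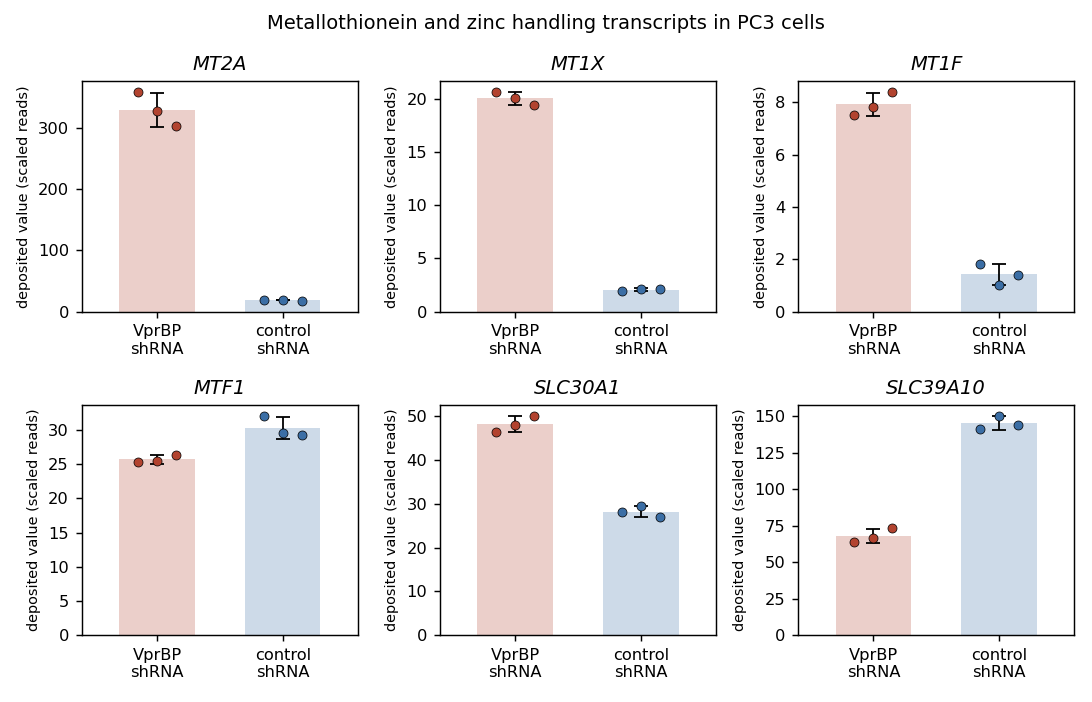
Deposited values (scaled reads, linear axis from 0) of the 6 genes in 3 VprBP shRNA libraries (left bar of each panel) and 3 control shRNA libraries (right bar); points are libraries, in the order 1 to 3, bars are means and error bars are SD. The 3 metallothioneins and SLC30A1 were higher in every VprBP shRNA library, and MTF1 and SLC39A10 were lower, with the smallest separation for MTF1.

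The VprBP shRNA libraries were more spread out for MT2A than for MT1X or MT1F, by coefficients of variation of 8.55%, 3.03% and 5.53%. The exact 95% Poisson intervals, which cover counting error only, were 352 to 364 in VprBP shRNA library 1, 320 to 333 in library 2 and 295 to 309 in library 3, and they did not overlap. Over all listed genes, libraries of 1 group also differed by more than counting error, the chi-square divided by its degrees of freedom being 3.65 to 6.69 between VprBP shRNA libraries and 3.39 to 3.85 between control libraries, so these intervals are narrower than the spread between libraries. In the control libraries they ran from 16.6 to 21.5 over the 3 libraries and overlapped one another. The coefficient of variation of MT2A in control cells was 3.51%. VprBP shRNA library 1 had the highest value for MT2A and the lowest for SLC39A10, and library 3 the reverse. The Poisson intervals of these libraries were separate for both genes, but they cover counting error only. Whether this order exceeds the spread between libraries was not tested. For MT1X, MT1F, MTF1 and SLC30A1 the intervals of VprBP shRNA libraries 1 and 3 overlapped, so the order of these libraries is not resolved at this depth.

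Of the 3 listed metallothioneins, MT2A had the highest values in both groups. It made up 92.1% ± 0.571 of the summed values of the 3 genes in VprBP shRNA cells and 84.4% ± 1.51 in control cells (SD, n = 3 each). MT1X made up 5.63% ± 0.275 of that sum in VprBP shRNA cells and 9.27% ± 0.661 in control cells, and MT1F made up 2.23% ± 0.298 and 6.32% ± 1.69 (SD, n = 3 each). The sum itself was 357 ± 28.3 in VprBP shRNA cells and 22.5 ± 0.548 in control cells (SD, n = 3 each), a 15.9-fold difference. MT1X and MT1F were listed only through the VprBP shRNA libraries, so the shares and the sum are descriptions. Metallothionein genes that are not listed are missing from them. Per kb of the longest protein-coding transcript in GENCODE 29, the level of MT2A was 418 ± 35.8 in VprBP shRNA cells and 24.2 ± 0.847 in control cells. Ranked by that level among the 11150 listed genes with such a length, MT2A stood at place 98 in VprBP shRNA cells and at place 2896 in control cells. The longest MT2A transcript has 786 bases, and a shorter length would raise its level per kb. Which transcript prevails was not examined. MT1X reached 37.2 ± 1.13 per kb in VprBP shRNA cells and 3.87 ± 0.195 in control cells, and MT1F reached 11.5 ± 0.635 and 2.06 ± 0.563 (SD, n = 3 each).

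Metallothionein genes are close relatives, so reads could be split between copies. Over the longest protein-coding transcripts of GENCODE 29, 36 of the 737 stretches of 50 bases in MT2A occurred exactly in a transcript of another metallothionein gene or pseudogene, 23 of 641 in MT1F and 0 of 489 in MT1X. The fold differences of MT2A, MT1X and MT1F remain uncertain to the extent that the authors' counting divided such reads. None of the 6 genes overlapped another listed gene in GENCODE 29. MTF1 and SLC39A10 overlap genes on the opposite strand that are not listed, and reads from those pairs can be told apart only by counting with strand, which is not stated. MT1X overlaps an unlisted gene on its own strand, and reads from the shared stretch cannot be told apart by strand.

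The promoters of the metallothionein and zinc transporter genes are shown because MREs are the sites through which MTF1 is known to act on them. RefSeq windows were available for 5 of the 6 genes, and there was none for MT1F. The 250 bases upstream of the transcript start (GRCh38.p14, from RefSeq) are given 5′ to 3′ on the gene's strand for MT2A (chr16:56608334-56608583, plus strand), MT1X (chr16:56682220-56682469, plus strand) and SLC30A1 (chr1:211579162-211579411, minus strand). Capitals mark every match on either strand to the MRE core, spelled TGCACNC or TGCGCNC:
MT2A: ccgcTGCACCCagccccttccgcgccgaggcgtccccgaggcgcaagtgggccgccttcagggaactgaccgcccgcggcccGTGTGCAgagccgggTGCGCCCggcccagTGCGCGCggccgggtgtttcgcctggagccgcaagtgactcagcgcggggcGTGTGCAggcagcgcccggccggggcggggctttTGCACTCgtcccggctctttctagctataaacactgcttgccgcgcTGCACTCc
MT1X: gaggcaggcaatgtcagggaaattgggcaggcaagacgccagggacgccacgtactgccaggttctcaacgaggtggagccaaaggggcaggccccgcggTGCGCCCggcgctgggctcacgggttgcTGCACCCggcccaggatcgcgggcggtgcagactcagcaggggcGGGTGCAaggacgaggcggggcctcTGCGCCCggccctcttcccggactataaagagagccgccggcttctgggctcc
SLC30A1: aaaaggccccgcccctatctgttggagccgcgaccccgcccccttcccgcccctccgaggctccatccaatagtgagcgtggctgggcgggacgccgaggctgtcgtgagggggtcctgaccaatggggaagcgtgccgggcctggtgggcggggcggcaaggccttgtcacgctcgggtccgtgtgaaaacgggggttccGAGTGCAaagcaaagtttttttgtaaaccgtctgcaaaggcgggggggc

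The MT2A window held 7 MRE core matches, 5 on the gene's strand and 2 on the opposite strand, from 246 to 2 bases before the start. The MT1X window held 4, between 150 and 47 bases before the start. The SLC30A1 window held 1, on the opposite strand, 49 to 43 bases before the start. No match lay in the MTF1 window or in either of the 2 SLC39A10 windows, which says only that these letters are not in those 250 bases. The SLC39A10 windows, chr2:195656708-195656957 and chr2:195656976-195657225, lie inside the deposited span of that gene. The bases upstream of its deposited start, 195575977, were not searched. Among 35116 RefSeq windows of the same length, several of which can belong to 1 gene, 24.8% held at least 1 match, 0.370% at least 4 and 0.0313% at least 7. No matches overlapped each other within the windows shown.

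Motifs tied to other known inducers of MT2A were also searched, and they were picked after the MT2A sequence had been read. The MT2A window held 1 AP-1 site, TGACTCA, 104 to 98 bases before the start, as did 4.20% of all windows at least once. It also held 1 match to the STAT-binding GAS motif, TTCNNNGAA, 194 to 186 bases before the start, against at least 1 in 6.57% of all windows, and the first SLC39A10 window held 1 as well. The interferon response motif ISRE, searched as 2 GAAA runs with 2 bases between them, matched in none of the 6 windows and in 3.02% of all windows. The motifs were searched on both strands, and a match is a description of the letters, not a site shown to be bound.

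**Figure D2:**
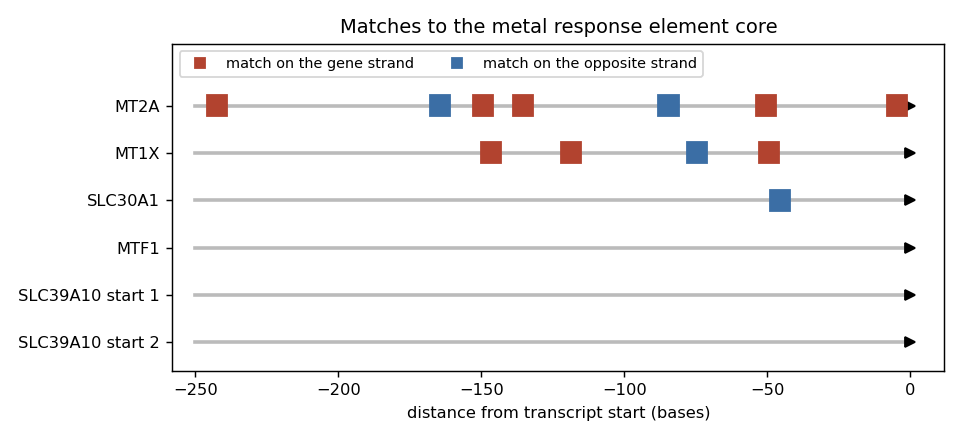
Positions of MRE core matches in the 250 bases upstream of the transcript start (x axis, distance in bases; arrowheads mark the start) for MT2A, MT1X, SLC30A1, MTF1 and the 2 SLC39A10 starts. Red boxes are matches on the gene's strand and blue boxes are matches on the opposite strand; MT2A holds 7, MT1X 4 and SLC30A1 1.

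MTF1 itself was slightly lower in VprBP shRNA cells. It had values of 25.2, 25.4 and 26.4 in VprBP shRNA libraries, against 32.0, 29.5 and 29.2 in control libraries. The groups did not overlap, but the distance from the highest VprBP shRNA library to the lowest control library was small. The means were 25.6 ± 0.616 in VprBP shRNA cells and 30.2 ± 1.55 in control cells (SD, n = 3 each), with a log2 fold change of -0.23 (SE 0.06), and 21.2% of listed genes had a lower log2 fold change. Per kb, MTF1 was at 3.22 ± 0.0773 in VprBP shRNA cells and 3.79 ± 0.194 in control cells (SD, n = 3 each), which placed it at 9273 and 8926 of the 11150 genes. These are transcript levels, and the activity of the MTF1 protein was not measured.

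The exporter gene SLC30A1 was higher, and the importer gene SLC39A10 lower, in VprBP shRNA cells. SLC30A1 had values of 46.3, 47.95 and 49.98 in VprBP shRNA libraries, against 28.0, 29.4 and 27.0 in control libraries. The means were 48.1 ± 1.83 in VprBP shRNA cells and 28.1 ± 1.20 in control cells (SD, n = 3 each), a 1.71-fold difference (log2 fold change 0.76, SE 0.06). SLC39A10 had values of 63.9, 66.7 and 73.2 in VprBP shRNA libraries, against 141, 150 and 144 in control libraries. The means were 67.9 ± 4.79 in VprBP shRNA cells and 145 ± 4.61 in control cells (SD, n = 3 each), so that 46.8% of the control level remained (log2 fold change -1.09, SE 0.05). For both transporters the groups were widely separated. The ratio of the SLC30A1 value to the SLC39A10 value, not adjusted for transcript length, was 0.709 ± 0.0230 in VprBP shRNA cells and 0.194 ± 0.00553 in control cells (SD, n = 3 each), a 3.66-fold difference.

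In all, 4 of the 6 genes were higher in every VprBP shRNA library than in every control library, and 2 were lower. Over the whole table, the groups did not overlap for 64.8% of genes, 35.1% being higher and 29.6% lower in VprBP shRNA cells. At an adjusted p under 0.05, 60.9% of all listed genes were called. Nothing is read from the 6 genes' counts, because the set was chosen on this comparison.

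The remaining zinc transporters changed less and in both directions. SLC30A1 and SLC39A10 were chosen with earlier results of these data known, so this contrast may be set by that choice. Of the 9 other SLC30 genes, which mostly export zinc from the cytosol or load it into vesicles, 4 were listed, and 1 rose, 1 fell and 2 were not called, where 33.0% of all listed genes were called higher and 27.8% lower. SLC30A6, a subunit of an early secretory pathway zinc transporter, had means of 58.6 ± 3.81 in VprBP shRNA cells and 43.1 ± 2.84 in control cells (SD, n = 3 each; log2 fold change 0.44, limma adjusted p = 1.01e-05), higher in every VprBP shRNA library. SLC30A5, its partner subunit, had means of 46.8 ± 1.15 and 52.9 ± 2.18 in VprBP shRNA and control cells (SD, n = 3 each; log2 fold change -0.18, limma adjusted p = 0.00698). The median log2 fold change of the 4 genes was 0.01, against 0.02 over all listed genes.

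Of the 13 other SLC39 genes, which bring zinc into the cytosol, 10 were listed. Of these, 4 rose, 3 fell (33.0% and 27.8% over all listed genes) and 3 missed the threshold, the list's median log2 fold change being -0.01. SLC39A8, an importer of zinc and manganese, had values of 58.9, 58.1 and 59.0 in VprBP shRNA libraries and 42.5, 43.2 and 42.6 in control libraries (log2 fold change 0.45, SE 0.05, limma adjusted p = 4.44e-07). SLC39A4, the importer mutated in the zinc deficiency disorder acrodermatitis enteropathica, had means of 101 ± 9.70 in VprBP shRNA cells and 73.4 ± 6.22 in control cells (SD, n = 3 each; log2 fold change 0.45, limma adjusted p = 2.42e-05). SLC39A1, the importer most often linked to zinc accumulation in prostate epithelium, had means of 209 ± 2.98 and 168 ± 2.96 in VprBP shRNA and control cells (SD, n = 3 each; log2 fold change 0.31, limma adjusted p = 8.41e-07). These 3 importers rose in every VprBP shRNA library.

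Among the importers that fell, SLC39A7, which releases zinc from the endoplasmic reticulum, had means of 178 ± 5.20 in VprBP shRNA cells and 221 ± 4.32 in control cells (SD, n = 3 each; log2 fold change -0.31, limma adjusted p = 1.57e-06). SLC39A9 and SLC39A14 had log2 fold changes of -0.27 and -0.12 (limma adjusted p = 2.29e-05 and 0.00740). Across the 14 other listed zinc transporters the log2 fold change lay between -0.31 and 0.45, beside 0.76 for SLC30A1 and -1.09 for SLC39A10. This is a description only, since SLC30A1 and SLC39A10 were chosen with earlier results of these data known.

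**Figure D3:**
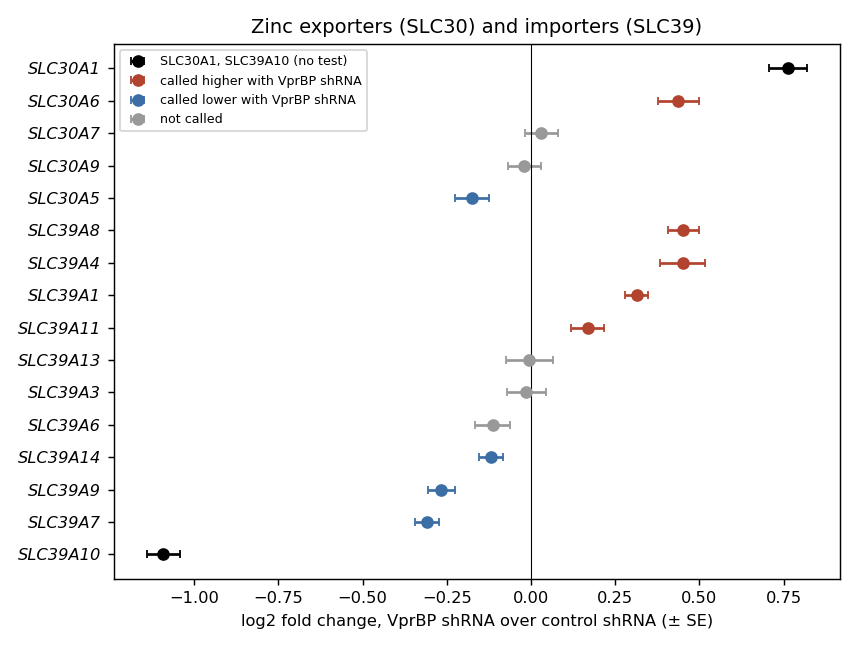
Log2 fold change of VprBP shRNA over control shRNA cells, with its SE, for the 16 listed zinc transporter genes, exporters (SLC30) above importers (SLC39). Black points are SLC30A1 and SLC39A10, red and blue points were called higher and lower, and grey points were not called. SLC30A1 at 0.76 and SLC39A10 at -1.09 lie outside the range of the other 14, but they were chosen with earlier results known.

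The order of the transporters by level per kb of transcript differed between the groups for most of them, SLC39A8 changing by as many places as SLC39A10. SLC39A10 stood 10th of the 16 listed transporters in VprBP shRNA cells, at 12.5 ± 0.883 per kb, and 6th in control cells, at 26.7 ± 0.848 per kb (SD, n = 3 each). In VprBP shRNA cells its neighbours in that order, SLC39A3 at 13.02 ± 0.399 and SLC30A6 at 11.5 ± 0.748 per kb, were no farther from it than the sum of the SDs. In control cells SLC39A4 at 32.0 ± 2.71 and SLC39A11 at 18.2 ± 0.544 per kb lay clearly apart from it. SLC30A1 stood 13th in VprBP shRNA cells, at 8.79 ± 0.334 per kb, and last in control cells, at 5.14 ± 0.220 per kb. In VprBP shRNA cells SLC30A9, at 8.44 ± 0.228 per kb, did not differ from SLC30A1 beyond their spread. SLC39A1 and SLC39A7 held the first places in both groups, in exchanged order.

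The metallothionein genes lie together on the long arm of chromosome 16. In the deposited table (hg38), MT2A (ENSG00000125148.7) spans 56608584 to 56609497 on the plus strand, MT1F (ENSG00000198417.7) starts 49.1 kb farther on at 56657731 and ends at 56660698, and MT1X (ENSG00000187193.9) spans 56682470 to 56684196. MTF1 (ENSG00000188786.10) lies on chromosome 1 from 37809574 to 37859592 and SLC30A1 (ENSG00000170385.10) on the same chromosome from 211571568 to 211579161, both on the minus strand. SLC39A10 (ENSG00000196950.14) lies on the plus strand of chromosome 2 from 195575977 to 195737702.

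The other listed genes around the metallothionein cluster showed far smaller differences. This contrast is a description only. MT2A was chosen for its increase, and MT1X and MT1F were listed only through the VprBP shRNA libraries. Of 7 other listed genes within 500 kb of MT2A, 3 rose, 1 fell (33.0% and 27.8% over all listed genes) and 3 were not called. Their log2 fold changes ran from -0.27 to 0.46, with a median of 0.04. NUP93, a nuclear pore gene 122 kb beyond MT2A on the far side of MT1X, had means of 94.8 ± 5.78 in VprBP shRNA cells and 92.6 ± 1.88 in control cells (SD, n = 3 each; limma adjusted p = 0.558). CPNE2 rose most, with a log2 fold change of 0.46 (SE 0.09, limma adjusted p = 0.000221). NUDT21, an mRNA 3′ end processing factor gene, had a log2 fold change of 0.11 (limma adjusted p = 0.0131), and this call was lost without control replicate 1 (adjusted p = 0.0506, in a range from 0.0131 to 0.0506 over 13 alternatives). HERPUD1, a gene of the endoplasmic reticulum stress response, fell, with a log2 fold change of -0.27 (SE 0.05, limma adjusted p = 0.000260).

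**Figure D4:**
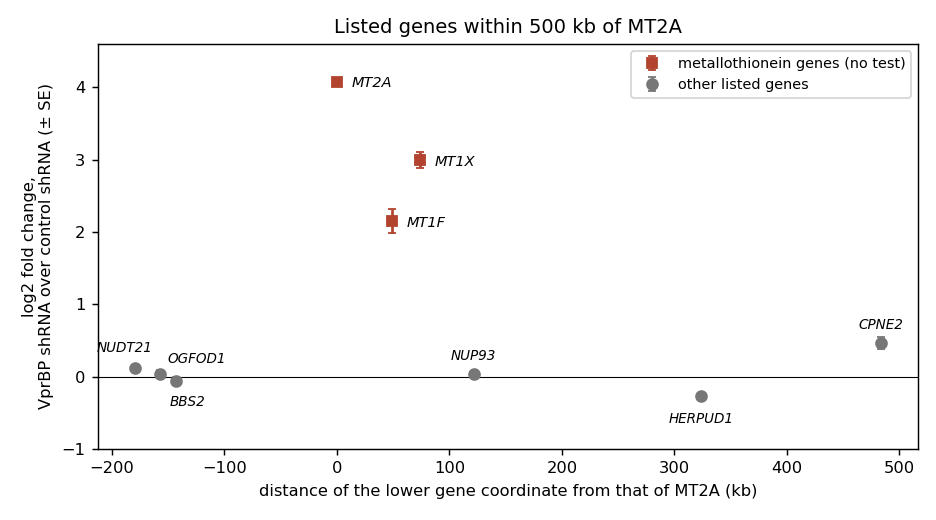
Log2 fold change of VprBP shRNA over control shRNA cells, with its SE, against the distance of each gene's lower coordinate from that of MT2A in kb, for listed genes within 500 kb. Red squares are the metallothionein genes at 4.08 (MT2A), 2.99 (MT1X) and 2.15 (MT1F). Grey points are 6 of the 7 other listed genes, which lie between -0.27 and 0.46. MT2A was chosen for its increase, and MT1X and MT1F were listed only through the VprBP shRNA libraries.

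Genes that other work, mostly in mouse cells, has placed under MTF1 were called in both directions. Of 6 such genes other than the members, 5 were listed, and 2 rose, 1 fell and 2 were not called. Over all listed genes, 33.0% were called higher and 27.8% lower, and nothing is read from these counts. NDRG1, which is also a hypoxia-induced gene, had values of 1596, 1588 and 1559 in VprBP shRNA libraries and 901, 899 and 927 in control libraries (log2 fold change 0.80, SE 0.03, limma adjusted p = 7.83e-13). CSRP1, a LIM domain protein gene, rose by a log2 fold change of 0.53 (SE 0.04, limma adjusted p = 2.07e-08). GCLC, which encodes the catalytic subunit of the first enzyme of glutathione synthesis, fell, with means of 85.7 ± 4.77 in VprBP shRNA cells and 111 ± 3.64 in control cells (SD, n = 3 each; log2 fold change -0.37, limma adjusted p = 4.30e-06). The selenoprotein genes SELENOW and SELENOH, at log2 fold changes of 0.04 and 0.10, were not called (limma adjusted p = 0.409 and 0.177).

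Copper handling genes, examined because metallothioneins also bind copper, were also called in both directions. Of 18 genes, 17 were listed, and 5 rose, 4 fell (33.0% and 27.8% over all listed genes) and 8 missed the threshold. The list's median log2 fold change was -0.01. SLC31A1, the main copper importer, fell, with means of 53.1 ± 1.29 in VprBP shRNA cells and 75.7 ± 3.28 in control cells (SD, n = 3 each; log2 fold change -0.51, limma adjusted p = 1.47e-07). SLC31A2, a related transporter of low abundance, rose, with means of 10.9 ± 1.08 and 5.78 ± 0.853 in VprBP shRNA and control cells (SD, n = 3 each; log2 fold change 0.87, limma adjusted p = 1.26e-05). STEAP4, a metalloreductase gene, had the largest change of the list, with values of 13.1, 12.2 and 12.6 in VprBP shRNA libraries against 44.8, 46.3 and 43.2 in control libraries (log2 fold change -1.79, limma adjusted p = 9.04e-13). The exporter gene ATP7A was not called (log2 fold change -0.02, limma adjusted p = 0.855). SCO2, a copper chaperone of cytochrome oxidase, rose by a log2 fold change of 0.45 (limma adjusted p = 0.000379).

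Calls of 2 less abundant copper genes depended on single libraries. ATP7B, the copper exporter mutated in Wilson disease, had a log2 fold change of -0.36 with overlapping groups (limma adjusted p = 0.0315). Its call was lost without VprBP shRNA replicate 1 (adjusted p = 0.193), without control replicate 1 (adjusted p = 0.146) and without control replicate 3 (adjusted p = 0.0626), in a range from 0.00544 to 0.193 over 13 alternatives. COMMD1, a gene of copper export, had a log2 fold change of 0.30 (limma adjusted p = 0.00864). Its call was lost without VprBP shRNA replicate 1 (adjusted p = 0.0581, in a range from 0.00280 to 0.0581 over 13 alternatives), and without that library 3 copper genes were called higher in place of 5.

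Genes of the general response to toxic metals and oxidants moved in both directions. Of 13 listed genes, 6 rose, 5 fell (33.0% and 27.8% over all listed genes) and 2 missed the threshold, the list's median log2 fold change being -0.03. HMOX1, the heme oxygenase gene that cadmium and other metals induce, had values of 25.7, 25.8 and 26.7 in VprBP shRNA libraries and 29.3, 29.3 and 27.4 in control libraries and was not called (log2 fold change -0.13, limma adjusted p = 0.0729). SLC7A11, the cystine transporter gene, TXNRD1, which encodes thioredoxin reductase, and HSPA1B, a heat shock protein gene whose near-identical copy HSPA1A makes its reads uncertain, fell, with log2 fold changes of -1.14, -0.33 and -0.23 (limma adjusted p = 3.56e-12, 1.85e-07 and 1.59e-05). OSGIN1, FTH1, the ferritin heavy chain gene, and DNAJB1, a heat shock protein gene, rose, with log2 fold changes of 0.37, 0.30 and 0.29 (limma adjusted p = 0.00616, 1.98e-07 and 6.65e-06).

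Glucocorticoid receptor target genes, together with the receptor's own gene NR3C1, were examined because MT2A is itself such a target. Of 11 genes, 9 were listed, and 1 rose, 3 fell (33.0% and 27.8% over all listed genes) and 5 missed the threshold. The list's median log2 fold change was -0.08. Among those not called, FKBP5 and TSC22D3 had log2 fold changes of -0.08 and -0.21 (limma adjusted p = 0.299 and 0.113). The others, FKBP4, SGK1 and DUSP1, had log2 fold changes of 0.05, 0.20 and 0.23 (limma adjusted p = 0.173, 0.214 and 0.0539). These genes were named after their values were seen. The activity of the receptor was not measured. CRISPLD2 rose, with means of 5.14 ± 0.763 in VprBP shRNA cells and 2.58 ± 0.628 in control cells (SD, n = 3 each; log2 fold change 0.88, limma adjusted p = 0.000354). ERRFI1, a feedback inhibitor of the EGF receptor, PER1, a clock gene, and NR3C1, which encodes the receptor, fell, with log2 fold changes of -1.12, -0.52 and -0.17 (limma adjusted p = 1.04e-14, 1.55e-05 and 0.00241). Without control replicate 2, and likewise without VprBP shRNA replicate 3, 2 genes of this list were called higher in place of 1.

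The listed genes most like MT2A over the 6 libraries were MX1, IFI44 and IFI6. Likeness was the root-mean-square distance between log2(value + 0.5) profiles after each gene's control mean was subtracted, and it was 0.12, 0.22 and 0.37 for the 3 genes. MX1 had values of 152, 147 and 155 in VprBP shRNA libraries and 9.53, 8.43 and 9.19 in control libraries. Its log2 fold change of 3.99 is close to the 4.08 of MT2A. The genes most like SLC39A10 were CADPS2, IL17RD and SPATA13, at distances of 0.03, 0.03 and 0.05. IL17RD had values of 20.04, 22.6 and 24.4 in VprBP shRNA libraries and 47.2, 50.3 and 48.0 in control libraries. These likenesses rest mostly on the difference between the groups, since the 6 libraries form 2 groups, and they are given as a description.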

How the data were processed

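Total RNA of 6 PC3 libraries was sequenced after SMARTer mRNA-seq library construction, per the labels' protocols. The deposited values, which the labels call raw counts, hold a scaled signal, that is, estimated reads per gene times 1 step per library, with a 75th percentile between 78.99 and 79.02 in every library. Between 55.4% and 64.8% of a library's values came within 0.02 reads of a whole number of steps, which is too few for a count model. Partek and hg38 are named in the submitters' processing notes, and for the aligner, annotation and strand setting the sources used here give nothing. Coordinate ends are the deposited ones reduced by 1.

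All 12227 listed genes were fitted with limma 3.58.1 (R 4.3.3) with trend on log2(value + 0.5), two-sided, with Benjamini-Hochberg adjustment, and called at an adjusted p under 0.05. The procedure was also run on simulated data with far fewer changed genes than were called here. That run does not measure its error rate on these data. Folds are ratios of group means. The members and lists were chosen with earlier results of these data known, so no p-value is given for a member. Besides the members and DCAF1, named genes are up to 3 called genes per list and direction with the largest change (mean value 1 or more), and the 3 genes most like MT2A and SLC39A10 (mean value 5 or more). NUP93, ATP7A, HMOX1, SELENOW, SELENOH, FKBP5, TSC22D3, FKBP4, SGK1, DUSP1, SLC39A3, SLC39A11 and SLC30A9 fall outside that rule and were chosen after their values were seen. The marker genes come from a list of their own. Some list and marker genes are not reported here. Lists are described without a set test. The AP-1, GAS and ISRE motifs were chosen after the promoter sequences were seen. Alternatives were pseudocounts of 0.1 and 1, median-ratio and library-size scaling, leaving out genes with a mean under 5, limma-voom applied to the estimated reads, the sample number as a replicate block, omission of each library in turn, and the summed metallothioneins.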

Additional observations from a re-analysis of the deposited data

How the results depend on the processing

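The 6 genes kept their direction under every alternative that was run. This is a description, because the set was chosen on this comparison. MT1X and MT1F were also listed only through the VprBP shRNA libraries. The log2 fold change ranged from 3.96 to 4.14 for MT2A, from 2.77 to 3.25 for MT1X, from 1.89 to 2.43 for MT1F, from -0.27 to -0.19 for MTF1, from 0.73 to 0.80 for SLC30A1 and from -1.15 to -1.05 for SLC39A10. The value of 3.96 is that of the 3 metallothioneins summed. For MT1X, the pseudocounts of 0.1 and 1 gave 3.21 and 2.77 and limma-voom gave 3.25, a move larger than the spread between replicates. MT1F did not pass the minimum mean of 5 and has no value there. The number of called genes was 7441 and lay between 6697 and 7493 under the alternatives. The excess of higher over lower calls depends on the scaling: 4037 against 3404 as deposited, 3723 against 3717 with median-ratio scaling, 3751 against 3681 with library-size scaling and 3790 against 3703 with limma-voom. Same-numbered samples had correlations of 0.02, -0.16 and -0.17 between their deviations from the group means. Samples with unlike numbers had correlations from -0.08 to 0.18. With 3 libraries per group these deviations constrain one another, so whether the labels' replicate numbers pair the samples cannot be decided. A replicate block gave 7042 called genes and changed the call of no list gene selected by the naming rule, nor of DCAF1. Of the lists, the number of glucocorticoid targets called higher was 0 with the minimum mean of 5, which removes CRISPLD2 from the test, 2 with limma-voom, and 1 to 2 when each library was left out. The number of copper handling genes called higher was 3 to 6 when each library was left out. The cause of these moves, other than the removal of CRISPLD2, was not tested. Depth limits MT1F most, with 24 to 59 estimated reads in control libraries.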
